A study of Rattus norvegicus with 8 samples.

Results

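The genes described here are the heat shock protein and DnaJ chaperone genes of rat skeletal muscle, measured after a swim and a meal. They were taken by name: every probe set whose annotation gave exactly 1 gene symbol, and whose symbol began with Hspa, Hspb, Hspd, Hspe, Hsph, Hsp90, Dnaja, Dnajb or Dnajc. This gave 98 probe sets of 64 genes, out of 31042 probe sets tested and 14217 genes with a probe set of their own. The 9 families were kept apart: small heat shock proteins (9 probe sets, 7 genes), DnaJ class A (6 and 4), DnaJ class B (19 and 12), DnaJ class C (38 and 23), the 60 kDa chaperonin with its 10 kDa partner (2 and 2), the 70 kDa proteins (15 and 9), the 90 kDa proteins (3 and 2), the 110 kDa proteins (4 and 3), and Hspbp1 and Hspbap1 (2 and 2), which share only the prefix. A further 6 probe sets that list a family symbol among several symbols were left out. Hspa1b, Hspa8 and Hsp90aa1 had no probe set listing them alone and were not analysed here.

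All 8 samples were epitrochlearis muscle, a small muscle of the forelimb, from male Sprague-Dawley rats aged 6 weeks. Every rat had been accustomed to swimming over 3 days, was held to 5 g of food on the day before, and swam for 2 h in water at 35 °C with 4 rats to a barrel. By gavage, 4 rats were then given an amino acid mixture plus carbohydrate (AAM) and 4 were given whey protein hydrolysate plus carbohydrate (WPH), 44 kJ in each case, about 15% of daily energy. All groups had exercised and been fed, so the data hold no resting and no unfed level, and the comparison asks only whether the protein source of the meal goes with a difference in chaperone messages.

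Chaperones hold unfolded or damaged proteins and help them fold, move or be degraded. The 70 kDa proteins do this with energy from ATP, DnaJ proteins deliver substrates to them and start ATP hydrolysis, the 110 kDa proteins exchange their nucleotide, the 90 kDa proteins finish the folding of kinases and receptors, and small heat shock proteins hold unfolding clients without ATP. In muscle the small members sit on the Z-disc and the contractile filaments, and heat, exercise and energy stress are known to raise the inducible members through heat shock factor binding at heat shock elements of their promoters.

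The deposited values ran from 5.28 to 14.2 and differed extremely little between arrays. The median SD between the 8 arrays was 3.69e-06 for all probe sets and 5.90e-06 for the chaperone probe sets. The array medians themselves spanned 6.67e-05, and 73 of the 98 chaperone probe sets spanned less than that over the 8 arrays. Differences in these units cannot be read as fold changes. Each array is therefore given by its distance from the mean of the 8 arrays, in SDs of that probe set over the 8 arrays (z), and each comparison by the standardized difference, WPH minus AAM over the pooled SD within groups. Fast-fibre markers (9 of 10 measured) read between 11.3 and 14.2, at the top of the scale. Of 5 skin and epithelium markers measured, between 6.03 and 6.79, 4 had the lower mean in WPH: their mean z was 0.059 to 0.553 on the AAM arrays and -0.358 to -0.222 on the WPH arrays, and their part in the chaperone values was not tested. In whole muscle, fewer cells of a type and less RNA per cell cannot be told apart.

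No chaperone probe set passed the threshold between WPH and AAM. By limma with Benjamini-Hochberg adjustment over all 31042 probe sets, 0 of 98 chaperone probe sets were called at 0.05, against a background of 0% over all probe sets, and the smallest adjusted p among chaperones was 0.9998. At an unadjusted p under 0.05, 3 of 98 were counted (1 higher and 2 lower in WPH), beside 3.58% of all probe sets. The same 3 were the ones whose groups did not overlap, beside 2.23% of all probe sets. They were Dnajb1, higher in WPH as deposited but level with AAM after centring, and Dnajb14 and Hspe1, lower in WPH. A count of 3 in 98 is near both background shares. Groups of 4 that do not overlap always give the smallest exact permutation p, 0.0286. The intervals and exact p-values given below for these 3 are not adjusted for their having been picked out.

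The direction over the chaperone probe sets depended on how arrays were scaled. As deposited, 57 probe sets had the higher mean in WPH and 41 the lower, with a median standardized difference of 0.11, beside 14679 higher and 16363 lower and a median of -0.04 over all probe sets. With each array centred on its own median, 18 were higher and 80 lower, while 9.01% of all probe sets were higher. Centring moves the difference of every probe set by the same amount in deposited units, here towards lower in WPH. It therefore weighs most on probe sets with small SDs. After quantile normalization 42 were higher and 40 lower, and the rest had equal means, since 66 of the 98 were left with at most 3 distinct values over the 8 arrays. The typical size of the standardized difference without its sign was 0.456 in chaperones and 0.454 in all probe sets.

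**Figure D1:**
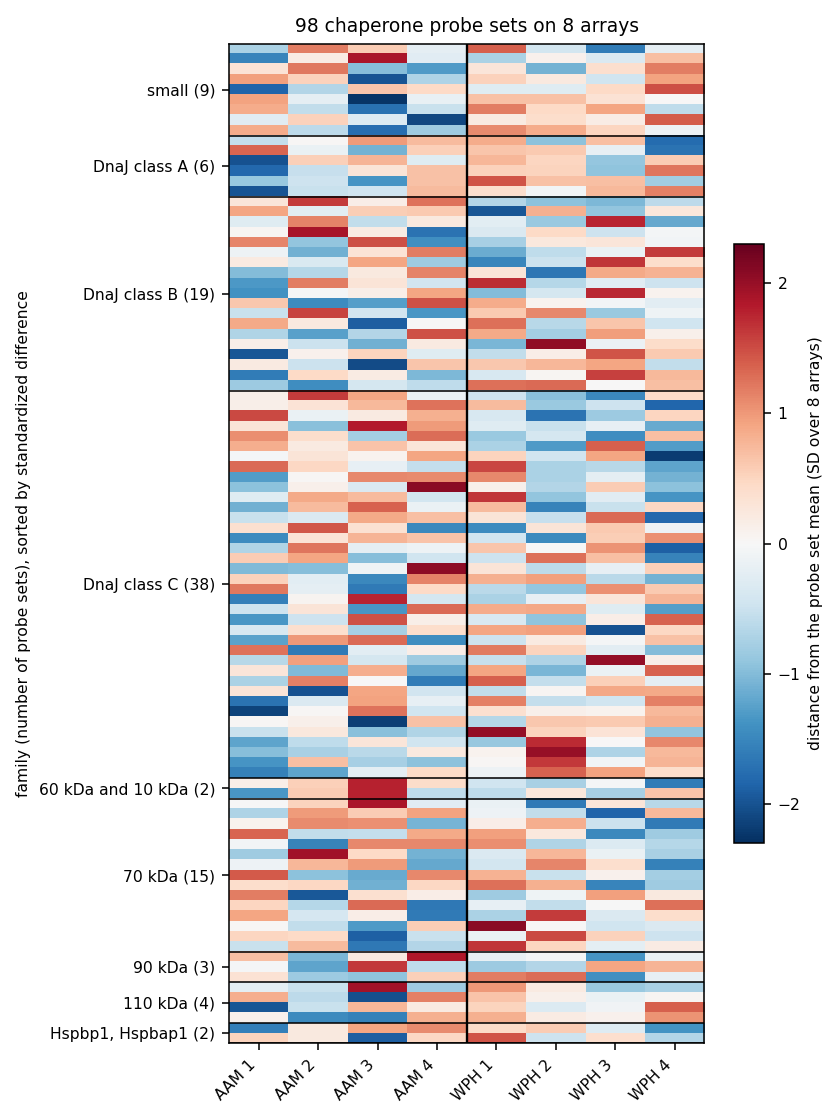
Each row is 1 of the 98 chaperone probe sets and each column 1 of the 8 arrays. Colour gives z, the distance from the probe set's mean in SDs over the 8 arrays. Rows are grouped by family and sorted by standardized difference within it. No family is uniformly red in one group and blue in the other. AAM array 1 is the lowest array for 23 of the 98 rows (23.5%, beside 14.9% of all probe sets and 18.0% of those with levels above the median).

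Some arrays held the extreme value more often than others. AAM array 1 was the lowest of the 8 for 23 chaperone probe sets (23.5%, beside 14.9% of all probe sets), and 18 of these 23 were DnaJ probe sets. AAM array 3 was lowest for 20 (20.4%, beside 17.2%), among them 4 of the 9 small heat shock protein probe sets. WPH array 1 was lowest for only 3 (3.06%, beside 10.3%) and highest for 16 (16.3%, beside 10.5%).

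Most small heat shock protein probe sets had the higher mean in WPH, within the spread of the arrays. Of 9 probe sets 7 had the higher mean in WPH, with a median standardized difference of 0.70. That median stayed above 0 after quantile normalization (0.33) and without any 1 array (0.38 to 1.13). It was 0.64 after centring, which moves probe sets with SDs as large as most of these very little. None of the 9 passed limma's threshold or an unadjusted p of 0.05, so no member can be said to differ. The promoter stretches of Hspb1 and Hspb8 are shown because both carry heat shock elements and their levels followed each other over the arrays. Hspb6 carries such elements too, but over the 8 arrays it correlated at only r = 0.17 with Hspb1 and 0.32 with Hspb8. The part of the elements in these levels was not tested. The stretches are the 250 bases before the annotated start in RefSeq, build GRCr8, read along the gene's strand. Each pair of facing heat shock units (GAANNTTC or TTCNNGAA) is in capitals.
Hspb1 (chr12:26432302-26432551, minus strand): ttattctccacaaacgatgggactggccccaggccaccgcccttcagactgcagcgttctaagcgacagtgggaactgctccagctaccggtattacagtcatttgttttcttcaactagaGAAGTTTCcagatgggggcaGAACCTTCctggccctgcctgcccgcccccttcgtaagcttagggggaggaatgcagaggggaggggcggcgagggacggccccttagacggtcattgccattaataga
Hspb8 (chr12:45837058-45837307, plus strand): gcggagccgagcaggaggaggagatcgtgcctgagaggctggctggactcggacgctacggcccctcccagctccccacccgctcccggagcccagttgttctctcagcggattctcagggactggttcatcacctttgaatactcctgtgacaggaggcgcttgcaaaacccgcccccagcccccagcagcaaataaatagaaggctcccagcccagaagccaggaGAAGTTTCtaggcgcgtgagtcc

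Hspb1, which encodes the small chaperone that protects actin filaments, had z values of 0.93, -0.2, -2.25 and -0.17 on AAM arrays 1 to 4 and 0.67, 0.68, 0.34 and 0 on WPH arrays 1 to 4. AAM array 3 stood far below all others, AAM array 1 was the highest, and the WPH arrays lay close together inside the AAM range. The standardized difference was 0.87 (95% interval -0.63 to 2.31, exact permutation p = 0.314), it was 0.49 without AAM array 3 and 1.63 without AAM array 1, and it was 0 after quantile normalization.

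Hspb8, which works with the co-chaperone Bag3 in clearing damaged Z-disc proteins, read 0.85, -0.6, -1.75 and -0.82 on AAM arrays 1 to 4 and 1.08, 0.86, 0.49 and -0.12 on WPH arrays 1 to 4. AAM array 3 was again the lowest and WPH array 1 the highest, and AAM array 1 overlapped the WPH arrays. The difference was 1.36 (95% interval -0.26 to 2.90, exact permutation p = 0.0857), its second probe set gave 1.04, and the sign turned after quantile normalization (-0.18). Without AAM array 1, the highest AAM array, it was 2.90, the largest value with 1 array left out. Both Hspb8 probe sets, which correlated at r = 0.95, then had an unadjusted p under 0.05 in limma, beside 3.79% of all probe sets. There was no call after adjustment.

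Hspb6, the small chaperone that associates with smooth and striated muscle actin, read -0.26, 0.53, -0.32 and -2.1 on AAM arrays 1 to 4 and 0.2, 0.4, 0.17 and 1.39 on WPH arrays 1 to 4. AAM array 4 was far below the rest and WPH array 4 above them, and AAM array 2 lay inside the WPH range. The difference was 1.22 (95% interval -0.36 to 2.72, exact permutation p = 0.114), and it was 0 after quantile normalization.

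Hspb7, a cardiac and skeletal muscle member needed for thin filament integrity, read 0.94, 0.53, -1.98 and -0.71 on AAM arrays 1 to 4 and 0.53, 0.23, -0.46 and 0.92 on WPH arrays 1 to 4. AAM array 1 was just above the highest WPH array, AAM array 2 lay among the WPH arrays and AAM array 3 was lowest. The difference was 0.60 (95% interval -0.85 to 2.00, exact permutation p = 0.514), it fell to 0.08 without AAM array 3, and the second probe set gave 0.35.

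The other small members gave no common direction. Hspb2 and Hspb3, which form a complex with each other in muscle, had standardized differences of 0.70 and -0.13, and Hspb9, known mainly from testis, had -0.40. The mean z over the 6 muscle members (Hspb1, Hspb2, Hspb3, Hspb6, Hspb7 and Hspb8) was -0.147, -0.037, -0.632 and -0.599 on AAM arrays 1 to 4 and 0.247, 0.332, 0.109 and 0.728 on WPH arrays 1 to 4. These means did not overlap between groups, but those over all 9 probe sets of the family did. The family's mean z was -0.048, 0.18, -0.656 and -0.624 on AAM arrays 1 to 4. On WPH arrays 1 to 4 it was 0.48, 0.104, 0.038 and 0.527. The list of 6 was chosen with earlier results known, so no test is given. The fast-fibre marker list had its lowest mean z on the same array, AAM array 3 (-0.772), and its highest on the same array, WPH array 4 (1.05), with 6 of 9 markers higher in WPH (-0.772 to 0.419 on AAM arrays, -0.348 to 1.05 on WPH arrays). Other marker lists also had extremes on these arrays. Neutrophil markers (3 of 5 higher in WPH) were lowest on AAM array 3 (-0.882), and fibroblast markers (5 of 7 higher) were highest on WPH array 4 (1.41). Slow-fibre markers had 6 of 7 lower in WPH and stood at -1.02 on WPH array 4. Among the fast-fibre markers Acta1 spanned only 1e-08 over the arrays, Ckm 1e-07 and Tnnt3 1.9e-07. Each marker still counts equally in the mean z of its list. The part of these marker lists in the small heat shock protein values was not tested.

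**Figure D2:**
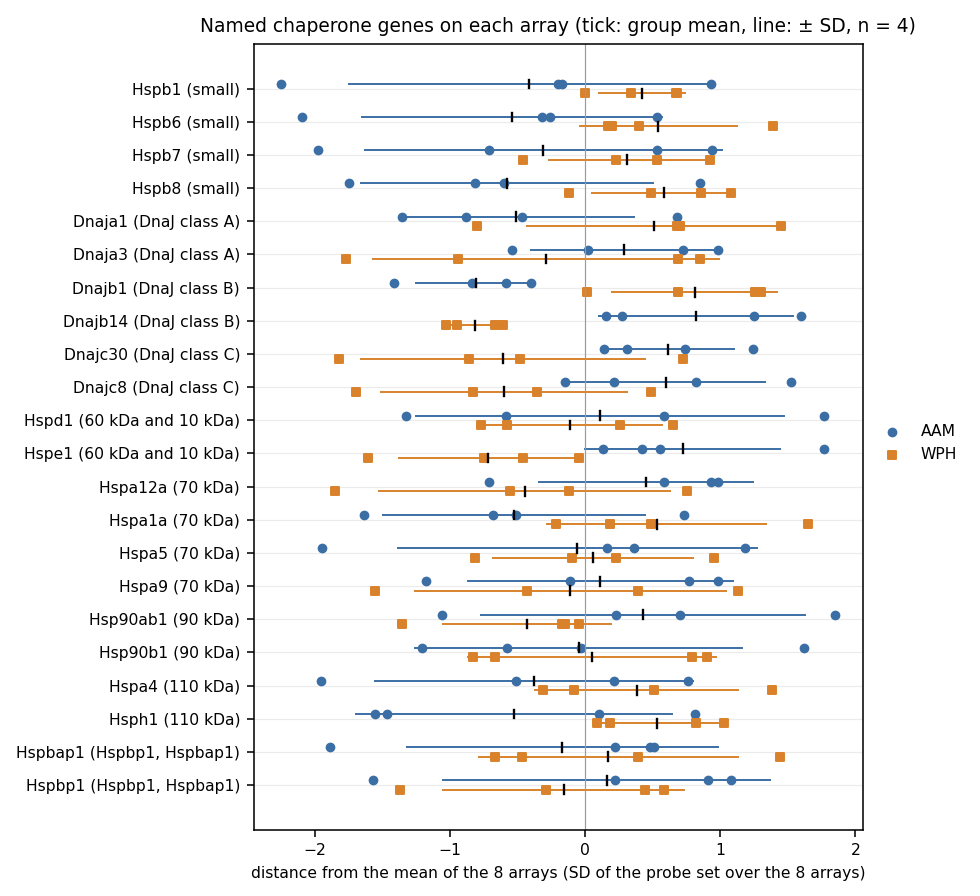
The z value of each named chaperone gene is plotted for the 4 AAM arrays (blue circles) and the 4 WPH arrays (orange squares), with a tick at each group mean and a line of ± 1 SD. The groups separate for Dnajb1, Dnajb14 and Hspe1, and overlap for the other 19 genes.

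Among DnaJ class A genes, whose products pair with the 70 kDa proteins, 4 of 6 probe sets had the higher mean in WPH, with a median of 0.57 that went to 0 after quantile normalization and to -0.04 after centring. Dnaja1, the main cytosolic co-chaperone of this class, read -0.88, -0.47, -1.36 and 0.68 on AAM arrays 1 to 4 and 1.45, 0.68, 0.7 and -0.8 on WPH arrays 1 to 4. WPH array 1 was the highest and AAM array 3 the lowest, but AAM array 4 lay among the high WPH arrays and WPH array 4 among the low AAM ones. The difference was 1.11 (95% interval -0.44 to 2.59, exact permutation p = 0.171), its second probe set gave 1.28, and quantile normalization turned the sign (-0.71).

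Dnaja3, the mitochondrial member, had z values of -0.54, 0.02, 0.98 and 0.72 on AAM arrays 1 to 4 and 0.85, -0.94, 0.69 and -1.77 on WPH arrays 1 to 4. The WPH arrays held both the lowest value and one of the highest. The difference was -0.57 (95% interval -1.97 to 0.87, exact permutation p = 0.429), it lay between -1.01 and -0.11 when 1 array was left out, and it was 0 after quantile normalization.

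DnaJ class B held the largest differences in both directions. Of 19 probe sets 13 had the higher mean in WPH, with a median of 0.19 that went to 0 after quantile normalization and to -0.49 after centring. The range was -3.08 to 3.07, and the ends were Dnajb14 and Dnajb1. Their promoter stretches are printed in the same way as those above, since they are the ends of that range, with no call for either. Dnajb1 has 1 pair of heat shock units just before its start, and Dnajb14 has none in these letters. Hspe1, lower in WPH like Dnajb14, does have such units, and their part in the differences was not tested.
Dnajb1 (chr19:41431142-41431391, minus strand): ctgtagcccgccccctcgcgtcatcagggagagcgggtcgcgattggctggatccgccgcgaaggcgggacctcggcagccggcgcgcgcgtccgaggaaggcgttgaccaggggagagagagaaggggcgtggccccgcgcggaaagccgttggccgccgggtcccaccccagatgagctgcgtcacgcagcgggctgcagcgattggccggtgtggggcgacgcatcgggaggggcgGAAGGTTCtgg
Dnajb14 (chr2:229032165-229032414, plus strand): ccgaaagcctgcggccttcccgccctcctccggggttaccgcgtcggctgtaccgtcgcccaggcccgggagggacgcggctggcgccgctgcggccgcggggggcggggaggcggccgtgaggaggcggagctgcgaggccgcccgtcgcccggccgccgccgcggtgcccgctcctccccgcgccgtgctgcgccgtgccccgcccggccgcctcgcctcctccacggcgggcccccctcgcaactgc

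Dnajb1, the stress-inducible partner of the 70 kDa proteins that helps to loosen protein aggregates, read -0.84, -1.42, -0.4 and -0.59 on AAM arrays 1 to 4 and 1.26, 1.3, 0.01 and 0.69 on WPH arrays 1 to 4. All AAM arrays lay below all WPH arrays, with WPH array 3 nearest to them. The difference was 1.19e-05 ± 2.75e-06 (SE) in deposited units, a standardized difference of 3.07 (95% interval 0.84 to 5.21, exact permutation p = 0.0286), where the exact p is the smallest that groups of 4 allow. It was 2.77 to 4.69 with 1 array left out, which could not turn its sign as the groups did not overlap. It was only 0.36 after quantile normalization and 0.01 after centring. The second Dnajb1 probe set gave 0.63 and correlated with the first at r = 0.36 over the 8 arrays, a description only.

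Dnajb14, a membrane-anchored DnaJ protein of the endoplasmic reticulum, read 0.27, 1.6, 0.15 and 1.25 on AAM arrays 1 to 4 and -0.67, -0.95, -1.03 and -0.61 on WPH arrays 1 to 4. Here all WPH arrays lay below all AAM arrays, and they lay close together, while AAM arrays 2 and 4 were high. The difference was -5.59e-05 ± 1.28e-05 (SE) in deposited units, a standardized difference of -3.08 (95% interval -5.23 to -0.84, exact permutation p = 0.0286). Dnajb14 was named for its small p, and neither the interval nor the exact p is adjusted for that choice. The standardized difference lay between -3.98 and -2.74 with 1 array left out, which could not turn its sign as the groups did not overlap. It was -0.36 after quantile normalization. It was -1.93 after centring, which moves every probe set towards lower in WPH and so could not turn its sign. The other 2 Dnajb14 probe sets gave -0.12 and -0.19, so only 1 of its 3 probe sets separated the groups.

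The remaining class B members showed smaller values. Dnajb5, a muscle-expressed member tied to redox signalling, gave 0.84, 0.19 and 1.09 on its 3 probe sets. Dnajb9, the stress-inducible member of the endoplasmic reticulum, gave 0.38, and Dnajb6, mutated in a limb-girdle muscular dystrophy, gave 0.13. Dnajb4 gave -0.25 and Dnajb2 gave 0.35 and 0.29.

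DnaJ class C, the most varied class, was split evenly: 21 of 38 probe sets had the higher mean in WPH, with a median of 0.05 that went to 0 after quantile normalization and to -0.52 after centring. Dnajc30, a mitochondrial member that keeps respiratory complex I in repair, read 0.14, 0.31, 0.74 and 1.24 on AAM arrays 1 to 4 and 0.72, -0.86, -0.48 and -1.82 on WPH arrays 1 to 4. AAM array values were all above 0, and WPH array 1 lay among them while the other WPH arrays were lower. The difference was -1.48 (95% interval -3.05 to 0.17, exact permutation p = 0.0857), the second probe set gave 1.18, and quantile normalization turned the sign (1.33).

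Dnajc8, associated with RNA splicing, read 1.52, -0.15, 0.21 and 0.82 on AAM arrays 1 to 4 and -0.36, -1.7, -0.83 and 0.49 on WPH arrays 1 to 4. AAM array 1 was the highest and WPH array 2 the lowest, and WPH array 4 overlapped the AAM arrays. The difference was -1.45 (95% interval -3.01 to 0.19, exact permutation p = 0.114), and quantile normalization turned the sign (0.71). The other class C probe sets ranged from -1.56 (1 of 3 Dnajc1 probe sets) to 1.62 (1 of 3 Dnajc5 probe sets, the cysteine string protein of vesicle release), and no class C probe set separated the groups.

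The mitochondrial chaperonin pair had the lower mean in WPH on both probe sets, and the groups did not overlap for Hspe1 but did for Hspd1. Hspe1 encodes the lid of the folding chamber that Hspd1 forms, and both genes lie head to head, 289 bases between their annotated starts. Their upstream windows share 211 bases and the same cluster of heat shock units, so only the Hspe1 side is printed.
Hspe1 (chr9:64084077-64084326, plus strand): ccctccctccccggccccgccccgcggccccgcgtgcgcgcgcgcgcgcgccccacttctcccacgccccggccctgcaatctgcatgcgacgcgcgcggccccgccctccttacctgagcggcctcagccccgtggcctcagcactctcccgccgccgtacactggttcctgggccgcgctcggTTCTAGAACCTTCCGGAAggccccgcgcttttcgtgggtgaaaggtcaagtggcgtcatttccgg

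Hspe1 read 0.13, 0.55, 1.77 and 0.42 on AAM arrays 1 to 4 and -0.46, -0.75, -0.05 and -1.61 on WPH arrays 1 to 4. All WPH arrays lay below all AAM arrays, with a narrow gap between WPH array 3 and AAM array 1, a high AAM array 3 and a low WPH array 4. The difference was -4.08e-05 ± 1.39e-05 (SE) in deposited units, a standardized difference of -2.07 (95% interval -3.82 to -0.22, exact permutation p = 0.0286). It was -2.45 to -1.88 with 1 array left out, which could not turn its sign as the groups did not overlap. After quantile normalization it was -2.12. The difference was -2.38 after centring, which moves every probe set towards lower in WPH and so could not turn its sign. Limma's adjusted p was 0.9998 in spite of this, as for every named gene.

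Hspd1 read -1.33, 0.58, 1.77 and -0.59 on AAM arrays 1 to 4 and -0.58, 0.26, -0.77 and 0.65 on WPH arrays 1 to 4. AAM arrays held both the highest value (array 3) and the lowest (array 1), and the WPH arrays lay between. The difference was -0.20 (95% interval -1.58 to 1.2, exact permutation p = 0.83), and it changed sign with the array left out, from -0.76 to 0.42. The difference between the 2 genes' effects was not tested.

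Among the 70 kDa genes 6 of 15 probe sets had the higher mean in WPH, with a median of -0.19 that went to 0 after quantile normalization and to -0.51 after centring. Hspa1a, the heat-inducible 70 kDa chaperone, read -0.51, 0.73, -1.64 and -0.68 on AAM arrays 1 to 4 and 1.65, 0.49, -0.22 and 0.18 on WPH arrays 1 to 4. WPH array 1 was highest and AAM array 3 lowest, and AAM array 2 lay above the other 3 WPH arrays. The difference was 0.00173 ± 0.00104 (SE) in deposited units, a standardized difference of 1.18 (95% interval -0.39 to 2.67, exact permutation p = 0.171). It kept its direction after quantile normalization (0.98). It was 1.16 after centring, which moves a probe set with so large an SD very little. It reached 2.01 without AAM array 2, the highest AAM array, and this was the largest value with 1 array left out. Its unadjusted p in limma was then under 0.05, beside 3.53% of all probe sets, with no call after adjustment.

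Hspa5, the 70 kDa chaperone of the endoplasmic reticulum, read 1.18, -1.95, 0.36 and 0.16 on AAM arrays 1 to 4 and -0.82, -0.1, 0.95 and 0.23 on WPH arrays 1 to 4. AAM arrays 1 and 2 were the highest and the lowest of all. The difference was 0.12 (95% interval -1.27 to 1.5, exact permutation p = 0.943), and it turned to -1 after quantile normalization and -0.54 after centring.

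Hspa9, the mitochondrial 70 kDa protein that pulls proteins through the inner membrane, read -0.11, 0.77, 0.98 and -1.18 on AAM arrays 1 to 4 and -0.43, 1.13, 0.39 and -1.56 on WPH arrays 1 to 4. The last array of each group was the lowest, and the groups covered the same range. The difference was -0.21 (95% interval -1.60 to 1.19, exact permutation p = 0.771), with -0.55, -0.23 and 0.45 on its other 3 probe sets.

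Hspa12a, a distant member of the family, read -0.71, 0.98, 0.58 and 0.93 on AAM arrays 1 to 4 and -0.12, -0.56, -1.85 and 0.75 on WPH arrays 1 to 4. WPH array 3 was far below the rest and the other WPH arrays lay inside the AAM range. The difference was -0.94 (95% interval -2.39 to 0.57, exact permutation p = 0.257), and its sign held after quantile normalization (-0.24). It was -0.62 after centring, which could not turn the sign of a lower mean in WPH.

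The 110 kDa genes had the higher mean in WPH on 3 of 4 probe sets, with a median of 0.54 that turned to -0.57 after quantile normalization and -0.02 after centring. Hsph1, an inducible nucleotide exchange factor, read 0.1, -1.47, -1.56 and 0.81 on AAM arrays 1 to 4 and 0.82, 0.18, 0.09 and 1.03 on WPH arrays 1 to 4. AAM arrays 2 and 3 were low, and AAM arrays 1 and 4 lay among the WPH arrays. The difference was 1.18 (95% interval -0.39 to 2.68, exact permutation p = 0.171), the second probe set gave 0.31, and quantile normalization turned the sign (-1.19). Among the 53 chaperone promoter stretches searched, its own was the only one with a 3-unit heat shock element outside the Hspd1 and Hspe1 pair.
Hsph1 (chr12:10427118-10427367, plus strand): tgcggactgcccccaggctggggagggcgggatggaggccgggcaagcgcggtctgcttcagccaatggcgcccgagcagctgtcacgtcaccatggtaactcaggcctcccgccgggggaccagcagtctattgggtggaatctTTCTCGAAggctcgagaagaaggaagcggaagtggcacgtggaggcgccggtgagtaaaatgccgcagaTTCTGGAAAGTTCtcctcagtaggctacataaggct

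Hspa4, the constitutive relative of Hsph1, read -1.96, -0.51, 0.76 and 0.21 on AAM arrays 1 to 4 and 0.51, -0.31, -0.08 and 1.38 on WPH arrays 1 to 4. AAM array 1 was the lowest and WPH array 4 the highest. The difference was 0.76 (95% interval -0.72 to 2.18, exact permutation p = 0.371), and quantile normalization turned the sign (-0.46).

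The 90 kDa family gave 2 of 3 probe sets higher in WPH and a median of 0.09, which went to 0 after quantile normalization and to -0.55 after centring. Hsp90ab1, the constitutive cytosolic member, read 0.7, -1.06, 0.23 and 1.85 on AAM arrays 1 to 4 and -0.17, -0.05, -1.36 and -0.15 on WPH arrays 1 to 4. AAM arrays 2 and 4 spanned nearly the whole range, and WPH array 3 stood below the other WPH arrays, which lay close together. The difference was -0.90 (95% interval -2.34 to 0.61, exact permutation p = 0.286), 0 after quantile normalization, and the second probe set gave 0.41.

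Hsp90b1, the endoplasmic reticulum member, read -0.03, -1.21, 1.62 and -0.58 on AAM arrays 1 to 4 and -0.83, -0.67, 0.9 and 0.79 on WPH arrays 1 to 4. Neither group was on one side. The difference was 0.09 (95% interval -1.30 to 1.47, exact permutation p = 0.971), it was 0 after quantile normalization and it turned to -0.55 after centring.

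Of the genes that share only the prefix, Hspbp1, a nucleotide exchange factor for the 70 kDa proteins, read -1.57, 0.22, 0.91 and 1.08 on AAM arrays 1 to 4 and 0.44, 0.58, -0.29 and -1.37 on WPH arrays 1 to 4. The lowest AAM and the lowest WPH array were below all others. Its difference was -0.30 (95% interval -1.69 to 1.11, exact permutation p = 0.629), turned to 0.36 by quantile normalization. Hspbap1, which binds Hspb1, read 0.51, 0.22, -1.89 and 0.48 on AAM arrays 1 to 4 and 1.44, -0.47, 0.39 and -0.67 on WPH arrays 1 to 4, with AAM array 3 far below the rest. Its difference was 0.32 (95% interval -1.09 to 1.71, exact permutation p = 0.657), and it was -0.30 without AAM array 3.

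**Figure D3:**
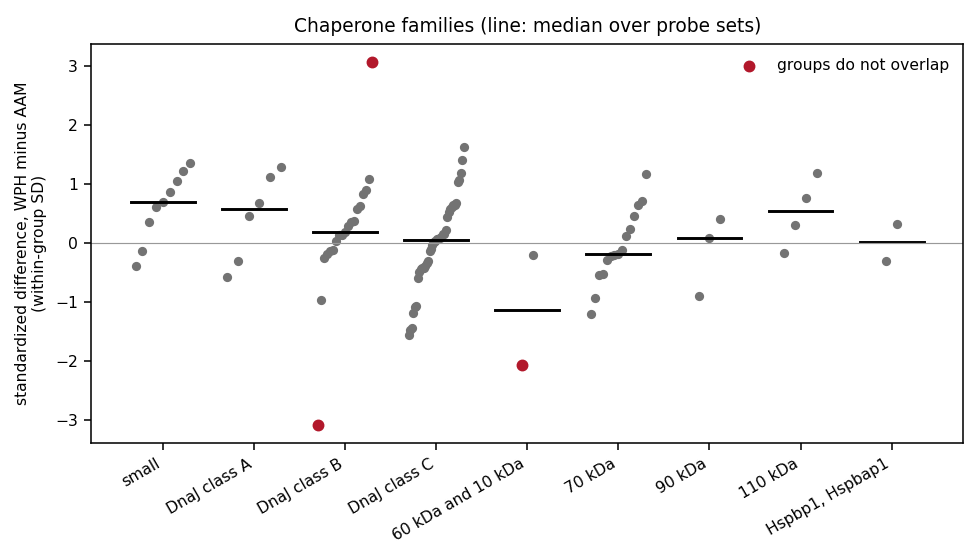
Each point is 1 chaperone probe set, placed by its standardized difference (WPH minus AAM, in SDs within groups) and grouped by family, with a line at the family median. Medians run from -1.13 in the 60 and 10 kDa pair, which has 2 probe sets, to 0.70 in the small family. After centring each array on its median, the small family's median (0.64) is the only one above 0. Centring moves the differences of all probe sets by the same amount, which is little beside the large SDs of most of this family. Red marks Dnajb1, Dnajb14 and Hspe1, the probe sets whose groups do not overlap.

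Sorted by where and when the products act, the chaperones gave the following counts. Of 10 heat-inducible genes measured (13 listed), 6 had the higher mean in WPH and 4 the lower, with a median of 0.99 as deposited. Their mean z was -0.405 to -0.153 on AAM arrays and -0.19 to 0.664 on WPH arrays. Of the 6 higher in WPH, quantile normalization turned Hsph1 (-1.19), Dnaja1 (-0.71) and Hspb8 (-0.18) and put Hspb1 at 0. Dnajb1 (0.36) and Hspa1a (0.98) stayed above 0. Dnajb1 and Hspe1, both on this list, lay on opposite sides. A list of 8 chaperones of the endoplasmic reticulum, which does not hold Dnajb14 (-3.08), was split 4 and 4, with a median of -0.03. Of 9 mitochondrial chaperones 7 had the lower mean in WPH, with a median of -0.21, and Hspe1 was the one at an unadjusted p under 0.05. Their mean z was highest on AAM array 3 (1.10) and lowest on AAM array 1 (-0.779), so both ends lay in 1 group.

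Limma called 0 genes at an adjusted 0.05 in each list of genes around the chaperones, and 1 gene in each of 2 lists had an unadjusted p under 0.05, Cdc37l1 and Sec63, beside 3.58% of all probe sets. The heat shock factors (5 of 6 measured) had 2 higher and 3 lower in WPH, and Hsf1, the factor that drives the heat response, gave -0.22. Co-chaperones of the 70 kDa proteins (12 of 12 measured) had 4 higher and 8 lower, with a median of -0.36. Co-chaperones of the 90 kDa proteins (14 of 17) had 4 higher and 10 lower, with a median of -0.19, and Cdc37l1, a relative of the kinase co-chaperone Cdc37, gave -2.43. Subunits of the cytosolic chaperonin and of prefoldin (13 of 14) had 8 higher and 5 lower, with a median of 0.25. Chaperone family genes under other symbols (8 of 9) were split 4 and 4. Among them Sec63, the DnaJ protein of the translocation channel, gave 1.78 with groups that did not overlap (2.23% of all probe sets), and Cryab, the abundant small heat shock protein of muscle, gave 0.60.

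The small heat shock proteins varied more from array to array than the other chaperone families, the 2 genes that share only the prefix apart. Of their 9 probe sets 6 (66.7%) were in the top 10% of all probe sets by SD over the 8 arrays, beside 15.3% of all chaperone probe sets and 17.9% of the probe sets with levels above the median. Their median SD was 1.30e-04, at percentile 93.5 of all probe sets. Hspb7 (SD 0.00201), Hspb3 (0.00197), Hspb1 (0.00185) and Hspb2 (9.42e-04) were the most variable of the family, and Hspb9 (2.66e-07) was the least. Outside the family Hspa1a (0.00165), between Hspb1 and Hspb2, Dnajb9 (6.29e-04) and Hspbap1 (5.49e-04) had the largest SDs. Median SDs were 5.30e-05 in the 60 and 10 kDa pair, 1.47e-05 in the 110 kDa family, 1.99e-05 in DnaJ class A, 4.06e-06 in class B, 2.73e-06 in class C, 6.44e-06 in the 70 kDa family and 6.33e-06 in the 90 kDa family. These are descriptions with no test, and since the deposited scale is unknown, a larger SD cannot be turned into a larger fold range.

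**Figure D4:**
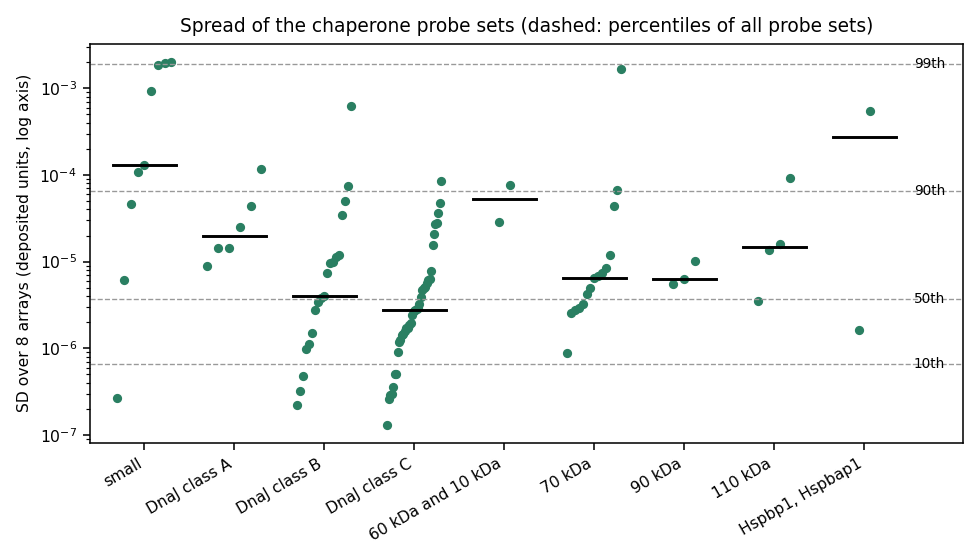
Each point is 1 chaperone probe set, placed by its SD over the 8 arrays in deposited units on a log axis, with a line at the family median. Dashed lines mark the 10th, 50th, 90th and 99th percentiles over all 31042 probe sets. Of the 9 small heat shock protein points 6 lie above the 90th percentile line, and most DnaJ class B and C points lie below it.

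Genes with several probe sets show how far separate probes of 1 gene gave the same pattern over the arrays. For 25 of the 64 genes there was more than 1, and in 13 of the 25 all probe sets had the same direction between groups. Over the 8 arrays 33 of 44 pairs of probe sets of the same gene correlated above 0, with a median r of 0.32. In the 22 pairs whose less variable member had an SD above 1.65e-06 the median was 0.57, and in the other 22 it was 0.04. After Benjamini-Hochberg adjustment over the 44 pairs, 3 passed in an exact permutation test: Hspb8 (r = 0.95, adjusted p = 0.0344, 0.88 without the 2 most distant arrays), a pair of Dnajb5 (0.93, adjusted p = 0.0344, then 0.75) and a pair of Hspa9 (0.90, adjusted p = 0.0473, then 0.65). Spearman's rho was 0.81, 0.90 and 0.81 in the same order, each with an adjusted exact permutation p of 0.192. These pairs were examined after the data had been seen.

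Hspa1a was set against 6 other inducible genes, by exact permutation over the 8 arrays. The correlation was r = 0.65 (rho = 0.31, adjusted p = 0.211) with Hspb1, 0.61 (rho = 0.52, adjusted p = 0.211) with Dnaja1, 0.47 (rho = 0.36, adjusted p = 0.359) with Dnajb1, 0.35 (rho = 0.36, adjusted p = 0.465) with Hsph1, -0.27 (rho = 0.05, adjusted p = 0.519) with Hspd1, and -0.61 (rho = -0.50, adjusted p = 0.211) with Hspe1. None passed. Without AAM array 3 and WPH array 1, the values were -0.19 with Hspb1, -0.15 with Dnaja1, 0.20 with Dnajb1, -0.58 with Hsph1, 0.84 with Hspd1 and -0.26 with Hspe1. The relations with Hspb1 and Dnaja1 thus rested on those arrays and, like those with Hsph1 and Hspd1, changed sign without them.

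Hspb1 and Hspb8 followed each other over the arrays. Among the 21 pairs of small heat shock protein genes, looked at after the data had been seen, their r was 0.92 (rho = 0.88, exact permutation p = 2.98e-04, adjusted p = 0.00625), 0.98 without AAM arrays 1 and 3, and 0.92 on values centred on each group mean. The rho did not pass after adjustment (adjusted p = 0.152). Hspb3 ran opposite to Hspb1 (r = -0.88, rho = -0.76, exact permutation adjusted p = 0.0503) and did so less without AAM arrays 1 and 3 (-0.46). Hspb1 and Hspb7 had r = 0.82 (rho = 0.62, exact permutation adjusted p = 0.135), which was 0.11 without those arrays. Both arrays are of the AAM group, the highest and the lowest of the 8 for Hspb1.

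RefSeq promoters (build GRCr8) were held for 53 of the 64 genes, and the 250 bases before each annotated start were searched on both strands. A pair of heat shock units (GAANNTTC or TTCNNGAA) was found in 13 of 53 chaperone promoters (24.5%), beside 13.2% of all 27457 promoters. The longer form with 3 units (GAANNTTCNNGAA or TTCNNGAANNTTC), which contains the shorter one, was found in 3 (5.66%), those of Hspd1, Hspe1 and Hsph1, beside 0.597%. The endoplasmic reticulum stress element (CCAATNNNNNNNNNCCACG or its reverse complement) was found in 3 (5.66%), those of Hspa5, Hsp90b1 and Dnajc3, beside 0.0765%. The CCAAT box, which that element contains, was in 20 (37.7%), beside 34.3%. Hspd1 and Hspe1 share 1 cluster and are not separate occurrences.

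**Figure D5:**
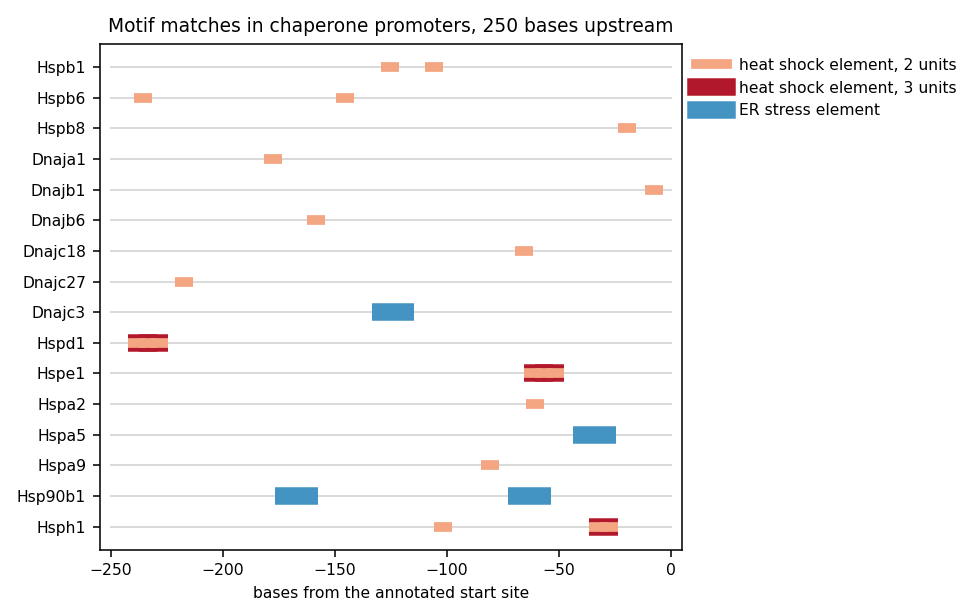
Each line is the 250 bases before the annotated start of a chaperone gene with a match, and the axis gives bases from that start. Light bars are pairs of heat shock units, dark red bars the 3-unit form and blue bars the endoplasmic reticulum stress element. Dnajb1 has its pair at -11 to -4 and Hspb8 at -23 to -16, next to the start, while Hspb1 has 2 pairs, at -129 to -122 and -109 to -102.

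As deposited, 8 of the 13 genes with paired heat shock units had the higher mean in WPH and 5 the lower, with a median standardized difference of 0.64, beside 24 higher and 16 lower and a median of 0.07 in the 40 genes without. Among the 8, quantile normalization turned Hsph1 (-1.19), Dnaja1 (-0.71) and Hspb8 (-0.18) and put Hspb1 and Hspb6 at 0. Dnajb1 stayed above 0 (0.36). Among the 5, Hspd1 and Hspa9 went to 0 and Hspe1 was -2.12. No test is given, as the members were not chosen independently of these results. Dnajb1 (3.07) and Hspe1 (-2.07) both have heat shock units close to the start and lay on opposite sides, while Dnajb14 (-3.08) has none in its window. Hspa5 (0.12), Hsp90b1 (0.09) and Dnajc3 (-0.60), with the stress element, all had groups that overlapped. A match is a description of the letters and not of binding, and the absence of a match says only that these letters are not in this window.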

How the data were processed

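Affymetrix 3' arrays were made from 100 ng of total RNA of each of 8 muscles, labelled as biological replicates (4 AAM, 4 WPH), per the labels' protocols. The authors deposited 1 log2-like expression level per probe set and array. The only software in the submitters' processing notes is R 2.7.2. The background correction, normalization, summary method, barrel, array batch and time of sampling were not given in any source used here. No batch therefore entered a fit, and how the values were scaled or centred is unknown.

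The 57 control probe sets among 31099 were removed, and the deposited values were not changed further. Limma 3.58.1 in R 4.3.3 (lmFit, eBayes, 6 residual degrees of freedom) compared WPH with AAM, two-sided, with Benjamini-Hochberg adjustment over 31042 probe sets and a threshold of 0.05. Intervals of standardized differences come from the noncentral t distribution and cover the error of the SD. Single probe sets were also tested by exact two-sided permutation over the 35 splits of 8 arrays, whose smallest p is 0.0286. Intervals and exact p-values of single genes are not adjusted for the number of genes or for how genes were chosen. Adjusted p-values of single genes are limma's, and those of correlations come from exact permutation of the pairings.

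In each family the 2 genes with the smallest unadjusted p were named, with Hspb1, Hspb6, Hspb7, Hspb8, Hspa1a, Hspa5, Hspa9, Hspd1, Hspe1, Hsph1, Hsp90ab1, Hsp90b1, Dnaja1 and Dnajb1. A gene is given by its probe set of highest mean. Other genes whose values are given were chosen after their values were seen. The members, lists and rules were chosen with earlier results of these data known. Gene names come from the platform annotation, and all 98 probe sets matched a RefSeq gene. Alternatives were quantile normalization, median centring, a replicate block, leaving out each array, the probe sets above the median level, a trended robust prior and 1 probe set per gene. The number of arrays limits the precision.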

Additional observations from a re-analysis of the deposited data

Results flagged for a closer look

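In groups of 4 arrays, a value was looked at again where the gap between an extreme array and its neighbour took up more than 0.83 of the group's range. This was met by 6 of 106 groups examined, and chance alone flags about 5% of them, or 5.3.

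Hsp90ab1 was low on WPH array 3, where the gap was 0.911 of the range of the WPH arrays. The mean z of the 90 kDa family, which holds that probe set, was low on the same array (0.844). Hspbap1 was low on AAM array 3 (0.879). The mean z of DnaJ class C was low on AAM array 1 (0.88), at -0.348. Among the lists of other genes, the co-chaperones of the 70 kDa proteins were low on AAM array 2 (0.878), and the endothelium markers were high on WPH array 3 (0.871), at 0.999.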

How the results depend on the processing

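No chaperone probe set was called in any setting tried. Over all probe sets quantile normalization gave 5 calls, and every other setting gave 0. The count of chaperone probe sets at an unadjusted p under 0.05 was 3, and 3 to 7 with 1 array left out. It was 7 without AAM replicate 2 (3.53% of all probe sets) and 6 without AAM replicate 4 (4.39%). It was 5 without AAM replicate 1 (3.79%), WPH replicate 1 (3.27%) or WPH replicate 4 (3.55%). It was 2 after quantile normalization (1.57% of all probe sets) and 2 after centring (0.554%). Dnajb1, Dnajb14 and Hspe1 were in it each time an array was left out. Same-numbered arrays of the 2 groups correlated at 0.167, 0.139, 0.067 and -0.078, beside -0.265 to 0.294 for arrays of different numbers. These values cannot tell whether same-numbered arrays shared a barrel or a batch. With the replicate block the count of chaperone probe sets was 6 (4.4% of all probe sets).

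The direction turned under quantile normalization for Hspa4 (-0.46), Hsph1 (-1.19), Hspa5 (-1), Dnaja1 (-0.71), Dnajc30 (1.33), Dnajc8 (0.71), Hspbp1 (0.36) and Hspb8 (-0.18), and under centring for Hspa5 (-0.54) and Hsp90b1 (-0.55). With 1 array left out it turned for Hspd1 (-0.76 to 0.42), Hspa5 (-0.76 to 0.55), Hspa9 (-0.68 to 0.28), Hsp90b1 (-0.29 to 0.81), Hspbap1 (-0.30 to 0.58) and Hspbp1 (-1.20 to 0.085). The cause was not tested. Beside the values given with the results, leaving out 1 array gave larger sizes for Dnajc30 (-2.88 without WPH replicate 1), Dnajc8 (-2.19 without WPH replicate 4), Hsph1 (2.17 without AAM replicate 4), Hspa1a (2.01 without AAM replicate 2), Dnaja1 (1.98 without WPH replicate 4), Hsp90ab1 (-1.90 without AAM replicate 2) Hspa12a (-1.54 without WPH replicate 4) and Hspa4 (1.24 without AAM replicate 3), with no call. Of 22 named genes, 6 kept their sign under quantile normalization, centring, the block and each array left out, though Dnajb1 was at 0.01 after centring, and 16 kept it with each array left out. Centring could not turn the sign of genes that were lower in WPH as deposited. Leaving out 1 array could not turn the sign of Dnajb1, Dnajb14 or Hspe1, whose groups did not overlap.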
